A study of Mus musculus with 8 samples.

Results

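The 10 genes described here encode core parts of insulin, insulin-like growth factor (IGF) and AMP-activated protein kinase (AMPK) signalling in the mouse heart. They are the receptors Insr and Igf1r, the docking proteins Irs1 and Irs2, the lipid kinase subunit Pik3ca, the kinases Akt1, Akt2 and Mtor, the AMPK catalytic subunit Prkaa2, and Tbc1d4, which links AKT to glucose uptake. They were taken by symbol from a table of 45706 genes, without use of any measured value, and all 10 passed the filter on low counts, which left 15289 genes. Hearts came from 8-week-old male mice of 3 genotypes. The cKO group (n = 4) was Elmsan1 fl/fl;aMHC-Cre+/-, in which the αMHC (Myh6) promoter drives Cre recombinase in cardiomyocytes, so that other heart cells keep the gene. The floxed group (n = 2) was Elmsan1 fl/fl without Cre. The Cre group (n = 2) was aMHC-Cre+/-, and its label names no floxed allele. RNA was extracted from the heart, so each value sums cardiomyocytes and all other cells, and fewer cells of a type cannot be told apart from less RNA per cell.

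Insulin and IGF bind receptor tyrosine kinases on the cell surface, which phosphorylate IRS docking proteins. IRS proteins recruit PI3-kinase, whose lipid product brings AKT to the membrane, and AKT then acts on TBC1D4 to move the glucose transporter GLUT4 to the surface and, through the TSC complex, on mTOR to promote growth. AMPK senses low cellular energy and acts in the opposite sense on mTOR, while it also promotes glucose uptake and fat oxidation. In cardiomyocytes both arms set how much glucose and fatty acid the heart burns. Elmsan1, also called Mideas, encodes part of MiDAC, a histone deacetylase complex, and the comparisons address which transcripts differ after its loss from cardiomyocytes.

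Each library held between 17509564 and 25833259 estimated counts, and the 10 genes had between 25 and 4277 counts in a library. Elmsan1 itself stood at 15.2, 15.5, 15.3 and 12.0 CPM (counts scaled to a common library size) in cKO replicates 1 to 4, at 27.6 and 25.6 CPM in floxed hearts and at 28.6 and 25.3 CPM in Cre hearts. It was 1.85-fold lower in cKO (log2 fold change -0.89, SE 0.11, edgeR quasi-likelihood adjusted p = 8.94e-05), so the targeted gene followed the labels in every library. Cardiomyocyte markers dominated all hearts and summed to 43975 to 52512 CPM in cKO, 53296 to 54127 CPM in floxed and 50543 to 54152 CPM in Cre hearts.

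Of the 10 genes 9 had lower levels in cKO hearts than the mean of both control groups, at an adjusted p under 0.05 over all genes tested, and 0 were higher. Among all tested genes 26.5% were lower by the same rule, and 52.1% were called in either direction. The same 9 genes had no overlap between the 4 cKO and the 4 control libraries, a separation that 25.9% of all tested genes showed in this direction. The median log2 fold change of the 10 genes was -0.58, beside 0.04 over all tested genes. Irs2, Irs1 and Prkaa2 fell furthest, and Akt1, Akt2 and Pik3ca fell least among those called.

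The regulatory stretches in front of the 3 genes that fell furthest are shown, chosen by the size of the fall alone. Each is the 250 bases before the transcription start in RefSeq on GRCm38.p6, read 5′ to 3′ on the gene's own strand, and capitals mark a CACGTG E-box. The Irs1 stretch lies at chr1:82291440-82291689, the Irs2 stretch at chr8:11008930-11009179 and the Prkaa2 stretch at chr4:105109899-105110148, all on the minus strand.
Irs1: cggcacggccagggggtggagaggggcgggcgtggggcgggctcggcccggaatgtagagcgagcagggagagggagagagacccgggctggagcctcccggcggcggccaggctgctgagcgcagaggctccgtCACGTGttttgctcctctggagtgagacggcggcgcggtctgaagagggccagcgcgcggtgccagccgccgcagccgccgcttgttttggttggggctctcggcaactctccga
Irs2: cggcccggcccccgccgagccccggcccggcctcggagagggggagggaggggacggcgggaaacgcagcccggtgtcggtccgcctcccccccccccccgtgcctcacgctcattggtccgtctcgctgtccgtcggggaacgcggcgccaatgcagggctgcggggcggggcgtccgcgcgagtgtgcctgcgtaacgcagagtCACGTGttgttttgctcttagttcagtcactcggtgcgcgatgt
Prkaa2: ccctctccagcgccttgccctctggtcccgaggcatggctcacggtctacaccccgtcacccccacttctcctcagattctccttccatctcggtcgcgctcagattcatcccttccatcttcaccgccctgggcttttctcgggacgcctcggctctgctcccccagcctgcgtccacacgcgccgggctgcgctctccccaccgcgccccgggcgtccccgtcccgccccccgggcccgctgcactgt

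The E-box began 115 bases before the start of Irs1 and 44 bases before that of Irs2. The stretches held 28 CpG dinucleotides in Irs1, 34 in Irs2 and 24 in Prkaa2. Windows of the other genes held from 0 (1 window of Akt2) to 42 (Igf1r), so these counts did not set the 3 apart. Windows were on hand for 9 of the 10 genes, 13 windows in all. CACGTG, its own reverse complement, occurred in 2 of the 13, and in 6.02% of 32851 mouse windows. The FoxO motif GTAAACA occurred, on either strand, in 1 of the 13 (Akt1) and in 3.17% of all windows. AAGGTCA, bound by oestrogen-related receptors, occurred in 1 (Igf1r) and in 4.08%, and the cyclic AMP response element TGACGTCA in 0 and in 1.55%. None of the 4 motifs was in the Prkaa2 stretch. These matches describe letters in the windows, not binding.

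**Figure D1:**
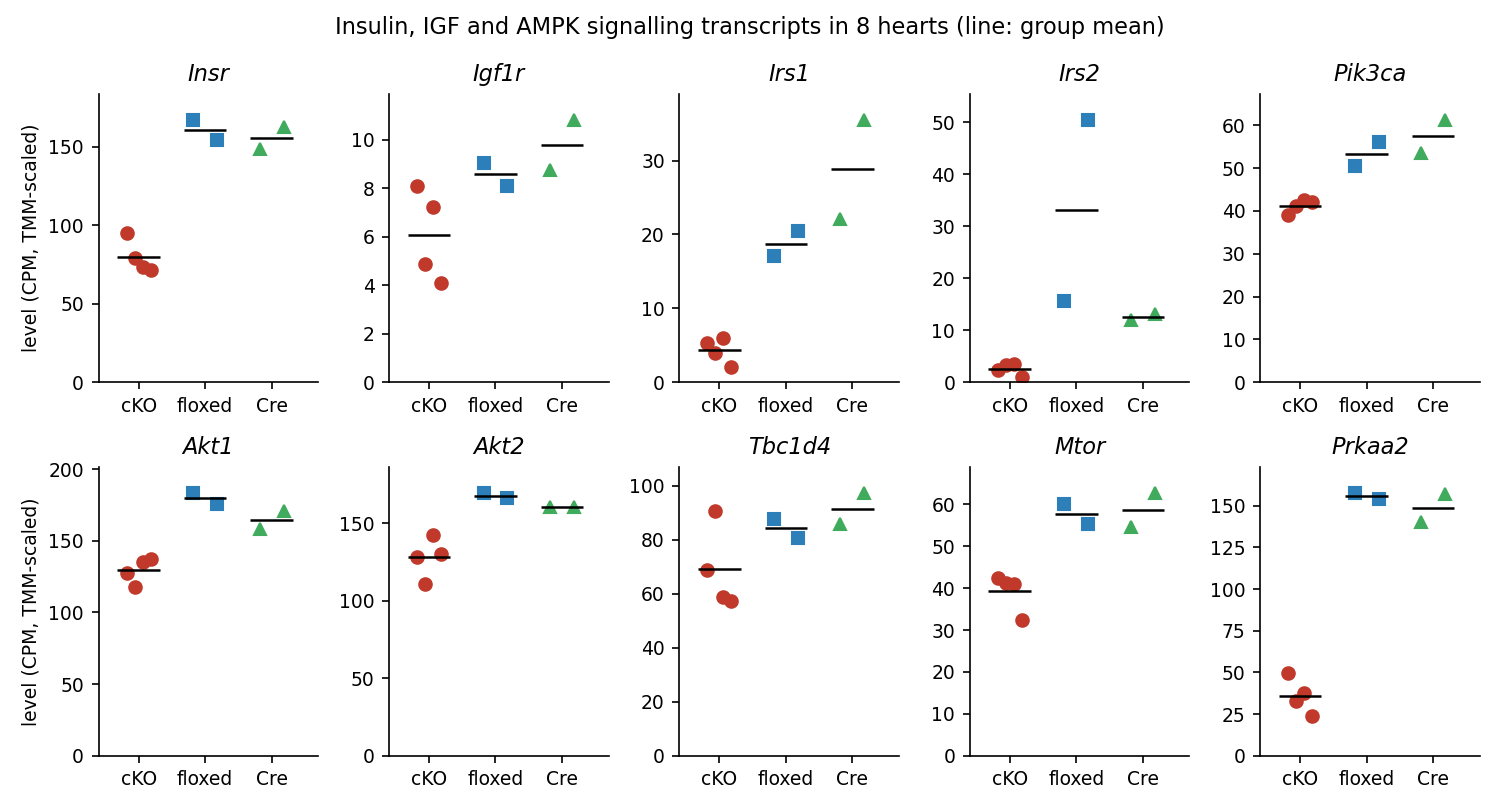
Level of each of the 10 genes in every heart, in CPM on linear axes that start at 0, with 1 point per library and a line at the mean of each group. Prkaa2, Irs1 and Insr show a wide gap between cKO and control points, Igf1r shows almost none (8.10 against 8.11 CPM), and Tbc1d4 overlaps because of cKO replicate 2.

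Both receptors were lower in cKO hearts, by unequal amounts and with unequal certainty. Insr (ENSMUSG00000005534, chr8:3122061-3279617 on GRCm38, minus strand), the insulin receptor, stood at 94.8, 79.4, 73.7 and 71.5 CPM in cKO replicates 1 to 4. It stood at 167 and 154 CPM in floxed hearts and at 148 and 163 CPM in Cre hearts. Every cKO heart was far below every control heart, and the means were 79.9 ± 10.5 (SD, n = 4) and 158 ± 8.45 CPM (SD, n = 4). This is a 1.98-fold lower level (log2 fold change -0.99, SE 0.11, edgeR quasi-likelihood adjusted p = 4.51e-05), with log2 fold changes of -1.01 against floxed (adjusted p = 0.000197) and -0.96 against Cre (adjusted p = 0.000264).

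Igf1r (ENSMUSG00000005533, chr7:67952827-68233668, plus strand), the receptor for IGF1 and IGF2, was far less abundant. It stood at 8.10, 4.89, 7.24 and 4.07 CPM in cKO hearts, at 9.04 and 8.11 CPM in floxed and at 8.73 and 10.8 CPM in Cre hearts. The highest cKO heart almost touched the lowest control, and the 1.51-fold lower level rested on a narrow margin (log2 fold change -0.60, SE 0.21, edgeR adjusted p = 0.0334). Against floxed hearts alone the call was not reached (log2 fold change -0.50, adjusted p = 0.130), and against Cre hearts it was (log2 fold change -0.69, adjusted p = 0.0454). Igf1r was not called in 11 of 20 alternative settings, over which its adjusted p ranged from 0.00781 to 0.572.

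The IRS docking proteins showed the largest falls among the 10 genes. Irs1 (ENSMUSG00000055980, chr1:82233101-82291416, minus strand) stood at 5.37, 4.00, 6.04 and 2.09 CPM in cKO hearts, at 17.1 and 20.5 CPM in floxed and at 22.1 and 35.5 CPM in Cre hearts. All control hearts lay well above all cKO hearts, though Cre replicate 2 stood apart from the other controls. The level was 5.34-fold lower (log2 fold change -2.42, SE 0.31, edgeR adjusted p = 0.000379), and 72 of the 15289 tested genes had a lower log2 fold change. The values were -2.11 against floxed (adjusted p = 0.00215) and -2.72 against Cre (adjusted p = 0.000663).

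Part of Irs1 cannot be told apart from a neighbour. Gm9747, an annotated protein-coding gene on the opposite strand, shares 2822 exonic bases with Irs1, which make up 30.9% of the exonic length of Irs1. It was counted at 12.1 to 21.4 CPM and did not differ in the test (log2 fold change -0.01, edgeR adjusted p = 0.962). With the values of both genes added, the level was 20.1 ± 4.10 CPM in cKO (SD, n = 4) and 39.9 ± 12.0 CPM in controls (SD, n = 4). The summed ranges, 15.4 to 25.3 CPM in cKO and 29.1 to 57.0 CPM in controls, still did not overlap, but the ratio of the means was 1.98.

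Irs2 (ENSMUSG00000038894, chr8:10984681-11008458, minus strand), the other main docking protein of insulin target tissues, fell furthest of the 10 and was the most variable among controls. It stood at 2.31, 3.26, 3.43 and 0.95 CPM in cKO hearts, at 15.7 and 50.5 CPM in floxed and at 11.9 and 13.2 CPM in Cre hearts. The cKO and control ranges were clearly apart, and floxed replicate 2 lay far above every other control. The level was 8.26-fold lower (log2 fold change -3.05, SE 0.51, edgeR adjusted p = 0.00245). Without floxed replicate 2 the log2 fold change was -2.52 (adjusted p = 0.00110). The fall was 13.4-fold against floxed (adjusted p = 0.00214) and 5.09-fold against Cre (adjusted p = 0.0165), and the test of Cre against floxed hearts gave an unadjusted p of 0.0621. The call against Cre hearts was lost without Cre replicate 1 (adjusted p = 0.0723) or Cre replicate 2 (adjusted p = 0.0845), and with no filter on low counts (adjusted p = 0.0517). Of the tested genes 32 had a lower log2 fold change.

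The 3 tested genes whose profile over the 8 libraries lay nearest to that of Irs2 were the antisense gene Gm15816, the unprocessed pseudogene Gm28439 and Ppara. Their root mean square distances were 0.602, 0.615 and 0.618 on the log2(CPM + 0.5) scale. Ppara, the nuclear receptor that drives fatty acid oxidation, averaged 4.88 CPM in cKO and 33.0 CPM in controls. Unlike Irs2 it was level between the floxed hearts, at 35.7 and 34.1 CPM.

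Pik3ca, Akt1 and Akt2 fell by smaller amounts, which were closely similar in the main setting but not under the offset described below. Pik3ca (ENSMUSG00000027665, chr3:32397671-32468486, plus strand), the α catalytic subunit of PI3-kinase, stood at 39.1, 41.2, 42.5 and 42.0 CPM in cKO hearts, at 50.5 and 56.0 CPM in floxed and at 53.5 and 61.3 CPM in Cre hearts. The cKO hearts were tightly grouped below all controls, 1.34-fold lower (log2 fold change -0.42, SE 0.08, edgeR adjusted p = 0.00157). This direction depended on the processing, since a per-library offset that takes out the trend with transcript length and GC content gave a log2 fold change of 0.070 (adjusted p = 0.600).

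Akt1 (ENSMUSG00000001729, chr12:112653821-112674884, minus strand), the AKT isoform tied mainly to growth and survival, stood at 128, 118, 135 and 137 CPM in cKO hearts. It stood at 183 and 176 CPM in floxed and at 158 and 171 CPM in Cre hearts, all above the cKO range. The 1.33-fold lower level (log2 fold change -0.41, SE 0.09, edgeR adjusted p = 0.00238) was larger under the length and GC offset, at a log2 fold change of -0.78. Akt2 (ENSMUSG00000004056, chr7:27591552-27640826, plus strand), the isoform tied mainly to glucose uptake, stood at 128, 111, 142 and 130 CPM in cKO hearts, at 169 and 166 CPM in floxed and at 160 and 160 CPM in Cre hearts. Controls were tight and again all above cKO, with a 1.28-fold difference (log2 fold change -0.36, SE 0.09, edgeR adjusted p = 0.00762). With library size as the sole scaling neither isoform was called, at log2 fold changes of -0.28 for Akt1 (adjusted p = 0.0506) and -0.23 for Akt2 (adjusted p = 0.128). That scaling raised the median of all genes by 0.12, and relative to that median they stood at -0.45 and -0.40.

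Tbc1d4 (ENSMUSG00000033083, chr14:101442360-101609191, minus strand), also called AS160, is the AKT substrate that holds GLUT4 vesicles inside the cell. It alone of the 10 was not called in the main comparison, though its log2 fold change was close to that of Akt2. It stood at 68.9, 90.9, 58.9 and 57.5 CPM in cKO hearts, at 87.7 and 80.8 CPM in floxed and at 86.0 and 97.3 CPM in Cre hearts. Of the 4 cKO hearts 3 were below all controls, and cKO replicate 2 lay among the controls. The log2 fold change was -0.35 (SE 0.14, edgeR adjusted p = 0.0584), so the call was missed. Without cKO replicate 2 the value was -0.50 (adjusted p = 0.00297), and DESeq2 on all hearts gave an adjusted p of 0.0457. With the length and GC offset it was -0.07 (adjusted p = 0.709).

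Mtor (ENSMUSG00000028991, chr4:148448611-148557683, plus strand), the catalytic kinase of both mTOR complexes, stood at 42.4, 41.2, 41.1 and 32.5 CPM in cKO hearts, at 60.1 and 55.4 CPM in floxed and at 54.7 and 62.7 CPM in Cre hearts. Every cKO heart was below every control, and cKO replicate 4 was below the other 3, which lay close together. The level was 1.48-fold lower (log2 fold change -0.57, SE 0.10, edgeR adjusted p = 0.000915) and had nearly the same log2 fold change against floxed (-0.56) and against Cre hearts (-0.58).

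Prkaa2 (ENSMUSG00000028518, chr4:105029874-105109890, minus strand), the α2 catalytic subunit that dominates in heart and skeletal muscle AMPK, had the smallest p of the 10 in the main comparison. It stood at 49.7, 33.1, 37.5 and 24.1 CPM in cKO hearts, at 157 and 154 CPM in floxed and at 140 and 157 CPM in Cre hearts. Controls hardly varied, while the cKO hearts spread more widely in proportion and stayed far below them. The level was 4.22-fold lower (log2 fold change -2.08, SE 0.19, edgeR adjusted p = 4.44e-05), with 123 of the tested genes showing a lower log2 fold change. It was called in all 20 alternative settings, over which the log2 fold change ranged from -2.28 to -1.54.

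**Figure D2:**
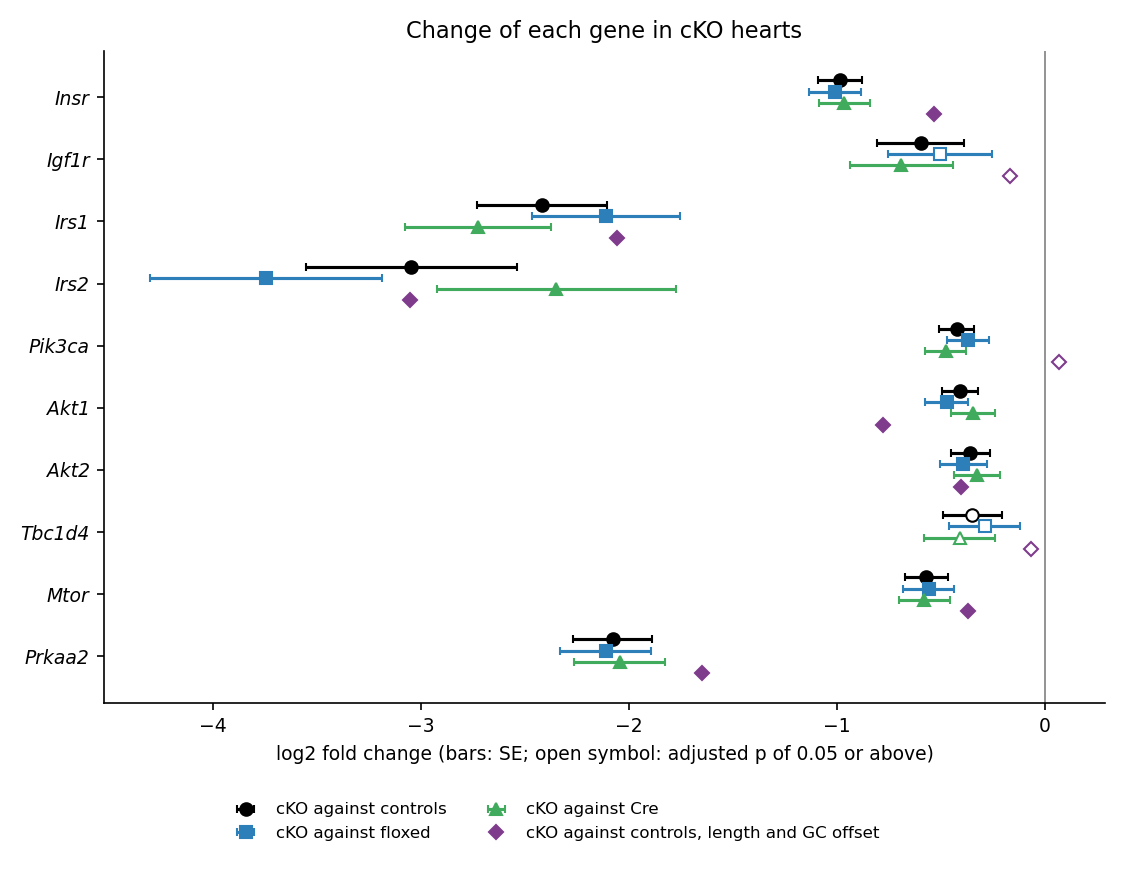
Log2 fold change of each gene in cKO against the mean of both controls, against floxed and against Cre hearts, with bars for the SE, and against controls with the length and GC offset, which has no bar. Open symbols have an adjusted p of 0.05 or above. Irs2, Irs1 and Prkaa2 lie far to the left under every comparison, and the offset moves Pik3ca from -0.42 to 0.070.

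Against floxed hearts 8 of the 10 genes were lower (23.1% of all tested genes), and against Cre hearts 9 were lower (22.8%). These comparisons share the cKO libraries, so they are not independent. Cre against floxed hearts gave 0 calls among the 10 genes in edgeR and in DESeq2 (0.0981% of all tested genes in edgeR), and 0 had an unadjusted p under 0.05. The smallest unadjusted p of that comparison was the 0.0621 of Irs2.

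Transcript length and GC content moved with the result. Of the 10 genes 8 have a longest transcript of at least 6000 bases, all but Akt1 (2690 bases) and Akt2 (4544 bases). Among 2030 tested protein-coding genes of that length the median log2 fold change was -0.35 and 49.6% were called lower, while among 11714 shorter ones the values were 0.09 and 24.5%. With the length and GC offset 7 of the 10 genes were lower, beside 3699 of all 15289 tested genes. The log2 fold changes were -0.53 for Insr, -2.06 for Irs1, -3.05 for Irs2 and -0.37 for Mtor. They were -1.65 for Prkaa2, -0.78 for Akt1 and -0.40 for Akt2. Igf1r (-0.16, edgeR adjusted p = 0.460), Pik3ca and Tbc1d4 were not called under the offset.

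Markers of some other cell types also differed with the genotype. The counts below stand beside 25.6% of all tested genes called higher and 26.5% called lower. Summed endothelial markers were 1369 to 1708 CPM in cKO, 994 to 1030 CPM in floxed and 994 to 1109 CPM in Cre hearts, with 7 of 10 markers called higher and 1 lower. Macrophage and monocyte markers were 334 to 435 CPM, 210 to 243 CPM and 223 to 260 CPM, with 7 of 10 higher. Adipocyte markers were 626 to 1272 CPM, 311 to 320 CPM and 354 to 536 CPM, with 2 of 7 higher, and cKO replicates 3 and 4 were highest. Most of this sum was Fabp4, at 601 to 1162 CPM in cKO, 287 to 307 CPM in floxed and 324 to 499 CPM in Cre hearts. Adipoq (2.47 to 16.2 CPM in cKO), Plin1 (0.79 to 10.1) and Cidec (3.90 to 23.6) overlapped between cKO and control hearts. Fibroblast markers (1236 to 1807 CPM in cKO, 1103 to 1217 in floxed and 934 to 1333 in Cre) overlapped between cKO and control hearts and had 3 of 10 higher. Smooth muscle and pericyte markers (574 to 982, 655 to 660 and 708 to 745 CPM) also overlapped and had 0 of 8 called. Of 8 cardiomyocyte markers 3 were lower and 2 higher. No marker was at 0 in any library. The part of these shifts in the results was not tested. Without cKO replicates 3 and 4, a setting chosen after seeing the data, 8 of the 10 genes were still called lower and Igf1r was not (edgeR adjusted p = 0.0815). Over all genes 3540 were lower in that setting, beside 4050 with all hearts. Prkaa2 (log2 fold change -1.88), Irs1 (-2.31) and Irs2 (-2.86) kept their direction and call.

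Levels per kilobase of the longest transcript put the genes in order within a group. In controls Akt1 led with 63.9 ± 3.94 CPM per kilobase (SD, n = 4), followed by Akt2 with 36.1 ± 0.994. Prkaa2 (19.1 ± 1.00) and Insr (16.9 ± 0.903) came next and overlapped, and Tbc1d4 followed at 13.6 ± 1.06. Mtor (6.80 ± 0.446), Pik3ca (6.20 ± 0.512), Irs2 (3.61 ± 2.93) and Irs1 (2.60 ± 0.886) overlapped each with its neighbour, and Igf1r was lowest at 0.804 ± 0.102. In cKO hearts Prkaa2 stood at 4.53 ± 1.33 CPM per kilobase and overlapped Mtor (4.59 ± 0.534), which in turn overlapped Pik3ca (4.62 ± 0.170). At the foot of the cKO order Igf1r (0.533 ± 0.167), Irs1 (0.478 ± 0.190) and Irs2 (0.393 ± 0.179) overlapped, where in controls Irs1 had been well above Igf1r.

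The 6 pairs of related genes were compared by their log2 ratio within each library, which removes library scaling, with exact two-sided permutation tests over 70 splits of the hearts that cannot go below p = 0.0286. Prkaa2 over Prkaa1, the more widely expressed α1 subunit of AMPK, was 1.65, 1.06, 1.56 and 0.83 in cKO hearts, 3.01 and 3.14 in floxed and 2.93 and 2.90 in Cre hearts. Every cKO ratio was below every control ratio, and the mean difference was -1.72 (exact permutation p = 0.0286, adjusted p over 6 pairs 0.0857). Prkaa1 itself was 1.32-fold lower (edgeR adjusted p = 0.0110), a call that the length and GC offset removed (adjusted p = 0.350).

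Tbc1d4 over Tbc1d1, the related Rab GTPase-activating protein that is a target of AMPK as well as AKT, was 0.70, 0.98, 0.17 and 0.43 in cKO hearts. It was 1.21 and 1.18 in floxed and 1.24 and 1.91 in Cre hearts, with no overlap and a mean difference of -0.82 (exact permutation p = 0.0286, adjusted p = 0.0857). Tbc1d1 itself was 1.36-fold higher in cKO (edgeR adjusted p = 0.00885). The other 4 ratios overlapped between the groups. Their differences were -0.35 for Insr over Igf1r (exact permutation p = 0.171), -0.58 for Irs2 over Irs1 (p = 0.486), 0.05 for Akt2 over Akt1 (p = 0.314) and 0.08 for Pik3ca over Pik3cb (p = 0.600). With the length and GC offset Akt2 over Akt1 differed by 0.37 and no longer overlapped (exact permutation p = 0.0286, adjusted p = 0.0571). With 70 splits, at least 4 of the 6 ratios would have to reach the smallest possible p for any to have an adjusted p under 0.05, so this adjustment says little about the ratios.

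**Figure D3:**
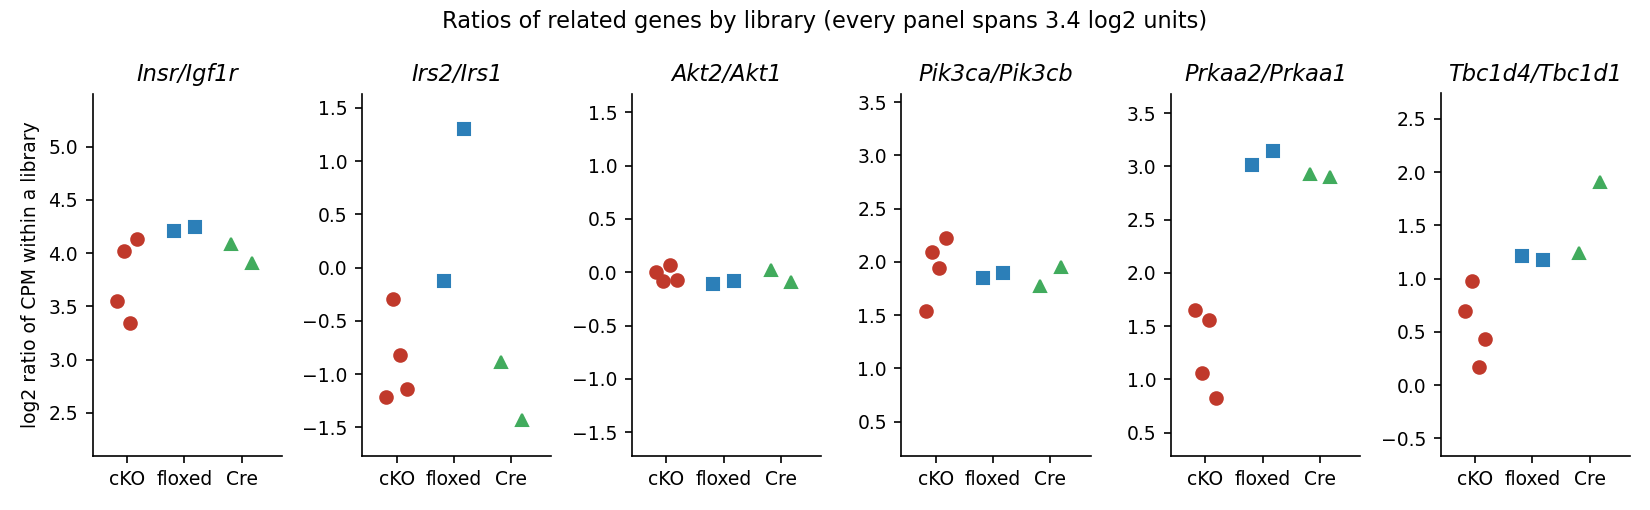
Log2 ratio of the 2 genes of each pair in every library, with 1 point per heart by group. Prkaa2 over Prkaa1 drops from 2.90 to 3.14 in controls to 0.83 to 1.65 in cKO hearts, Tbc1d4 over Tbc1d1 separates more narrowly, and the other pairs overlap.

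The rest of the pathway was described with 7 lists of 77 genes, of which 76 were tested. In all 33 of them were lower in cKO (43.4%, beside 26.5% of all tested genes), 17 were higher (22.4%, beside 25.6%) and 26 were not called. The median log2 fold change was -0.19. Without cKO replicates 3 and 4 the counts were 30 lower and 15 higher, beside 3540 and 3073 over all genes. With library size as the sole scaling they were 25 lower and 19 higher, beside 2981 and 4753 over all genes. With the length and GC offset they were 29 lower and 19 higher, beside 3699 and 3275 over all genes, and the median was -0.098. Most genes named from the lists in the following were called genes with the smallest p of their list, a choice that favours separate groups. Unless stated they had no overlap between cKO and control libraries, which 25.9% of all tested genes showed in the lower direction.

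Ligands and binding proteins were mostly higher in cKO hearts. Of 9 tested genes 5 were higher, 1 was lower and 3 were not called, with a median log2 fold change of 0.69. Igfbp7 rose from 139 ± 12.6 to 314 ± 69.3 CPM (SD, n = 4 each; 2.26-fold, edgeR adjusted p = 7.00e-05), Igfbp4 from 101 ± 12.4 to 176 ± 24.3 CPM (1.76-fold, adjusted p = 0.000246) and Igfbp6 from 17.1 ± 1.67 to 35.2 ± 8.47 CPM (2.06-fold, adjusted p = 0.00042). With the length and GC offset the log2 fold change of Igfbp7 went from 1.18 to 0.51 (adjusted p = 0.00214), that of Igfbp6 from 1.04 to 0.32 (adjusted p = 0.0441), and the list's median to 0.32. These secreted proteins bind IGFs outside the cell, Igfbp7 with low affinity. The growth factors themselves, named after their values were seen, were also higher, Igf1 by 1.61-fold (22.9 ± 4.28 against 14.3 ± 2.26 CPM, adjusted p = 0.00291) and Igf2 by 2.01-fold (111 ± 34.8 against 55.3 ± 9.02 CPM, adjusted p = 0.00621). The fall was in Igf2r, the scavenger receptor that carries IGF2 to lysosomes, from 179 ± 12.5 to 82.3 ± 14.3 CPM (2.18-fold, adjusted p = 5.17e-05). IGF ligands and binding proteins are made by fibroblasts and endothelial cells as well. Summed endothelial and macrophage markers were higher in cKO hearts, while summed fibroblast markers overlapped between cKO and control hearts. The part of these cells in the values of this list was not tested.

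Receptor adaptors and brakes gave 6 lower, 1 higher and 7 not called of 14, with a median log2 fold change of -0.17. Grb14, an adaptor that inhibits the insulin receptor, was 2.20-fold lower (67.4 ± 14.1 against 149 ± 21.3 CPM, edgeR adjusted p = 9.04e-05). Gab1, a docking protein, was 1.63-fold lower (adjusted p = 5.95e-05). The tyrosine phosphatase Ptpn11 (SHP2) was 1.74-fold lower (adjusted p = 0.000335) and the Ras exchange factor Sos1 1.63-fold lower (adjusted p = 0.00042), a call that the length and GC offset removed (adjusted p = 0.0631). Gab1, Sos1 and Ptpn11 carry receptor signals onward, whereas Grb14 inhibits the receptor.

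Of 11 genes of PI3-kinase, PDK1 and the phosphatases that oppose them, 5 were lower, 2 were higher and 4 were not called, with a median log2 fold change of -0.43, or -0.12 with the offset. Pdpk1 (PDK1), the kinase that activates AKT, fell from 45.8 ± 4.15 to 21.6 ± 2.51 CPM (2.12-fold, edgeR adjusted p = 3.30e-05). Pik3r1, the regulatory p85α subunit, fell from 139 ± 21.8 to 62.5 ± 12.8 CPM (2.22-fold, adjusted p = 0.000226). Phlpp1, a phosphatase that turns AKT off, was 1.59-fold lower (adjusted p = 0.000259). Pik3cd, the δ catalytic subunit known from leukocytes, was 1.65-fold higher (10.8 ± 1.56 against 6.54 ± 0.862 CPM, edgeR adjusted p = 0.00156). Macrophage and monocyte markers were higher in the same hearts, and their part in this value was not tested. Pik3cb, the β catalytic subunit, was 1.41-fold lower (adjusted p = 0.00932), a call lost with the offset (adjusted p = 0.368).

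Of 13 genes of the mTOR complexes, the TSC complex and S6 kinase, 7 were lower, 4 were higher and 2 were not called, with a median log2 fold change of -0.35. With the offset 5 were lower and 3 higher, and the median was -0.022. Eif4ebp2, a repressor of cap-dependent translation that mTOR inactivates, had the largest fall of all 7 lists, from 27.3 ± 1.80 to 6.45 ± 2.61 CPM (4.26-fold, edgeR adjusted p = 0.000134). Rptor, the scaffold of mTOR complex 1, was 1.75-fold lower (25.3 ± 2.87 against 44.2 ± 2.89 CPM, adjusted p = 0.000102). Tsc1, which restrains that complex, was 1.62-fold lower (adjusted p = 0.000261). Rps6kb2, an S6 kinase, was 1.86-fold higher (25.0 ± 3.71 against 13.4 ± 0.713 CPM, adjusted p = 0.000137).

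AMPK subunits and upstream kinases gave 5 lower, 1 higher and 5 not called of 11, with a median log2 fold change of -0.19. Prkab2, the β2 subunit found with α2 in muscle, fell from 59.8 ± 6.96 to 26.7 ± 5.87 CPM (2.24-fold, edgeR adjusted p = 0.000155). Prkab1, the β1 subunit, was 1.37-fold lower (adjusted p = 0.00471), and Stradb and Cab39, which encode an LKB1 adaptor pseudokinase and the scaffold MO25α, were 1.69-fold (adjusted p = 0.000346) and 1.64-fold lower (adjusted p = 0.000238). Stk11, which encodes LKB1 itself, stood higher in cKO hearts (130 ± 3.70 against 106 ± 6.73 CPM, SD, n = 4 each). With the length and GC offset it did not differ in the test (log2 fold change 0.03, edgeR adjusted p = 0.787). Strada, another LKB1 adaptor gene, overlapped between the groups (9.51 ± 1.29 against 7.83 ± 0.644 CPM). With the offset Strada was higher (log2 fold change 0.46, edgeR adjusted p = 0.0131). None of the 3 γ subunit genes was called. Prkag1 (78.0 ± 2.18 CPM in cKO, 73.9 ± 1.42 in controls) and Prkag2 (39.7 ± 6.38 and 33.1 ± 3.54) overlapped between the groups. With the length and GC offset Prkag1 was lower (log2 fold change -0.22, edgeR adjusted p = 0.0312), opposite to its mean CPM. Prkag2 was higher with the offset (0.33, adjusted p = 0.0416).

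AKT and AMPK substrates gave 4 lower, 2 higher and 3 not called of 9, with a median log2 fold change of -0.21, which was 0.037 with the length and GC offset. Gsk3b, the glycogen synthase kinase that AKT inhibits, fell from 68.3 ± 1.98 to 29.7 ± 4.14 CPM (2.30-fold, edgeR adjusted p = 2.23e-05). Ulk1, which starts autophagy, was 1.48-fold lower (adjusted p = 0.00049). Bad, a pro-apoptotic BCL2 family member, was 1.97-fold higher (adjusted p = 0.000103) and Mlxipl (ChREBP), a glucose-responsive transcription factor, was 2.07-fold higher (adjusted p = 0.000193).

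Glucose transport gave 5 lower, 2 higher and 2 not called of 9, with a median log2 fold change of -0.44, or -0.17 with the offset. Slc2a4, which encodes GLUT4, fell from 363 ± 14.1 to 240 ± 24.9 CPM (1.52-fold, edgeR adjusted p = 0.000424) and stayed called with the offset (log2 fold change -0.73). Rab10, a small GTPase of GLUT4 vesicles that TBC1D4 switches off, fell from 137 ± 5.05 to 61.7 ± 9.74 CPM (2.22-fold, adjusted p = 3.30e-05). Lnpep (IRAP), an aminopeptidase that travels in the same vesicles, fell from 38.9 ± 13.3 to 10.3 ± 3.38 CPM (3.79-fold, adjusted p = 0.00174). Rab13, another small GTPase, was 2.29-fold higher (adjusted p = 0.000297).

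**Figure D4:**
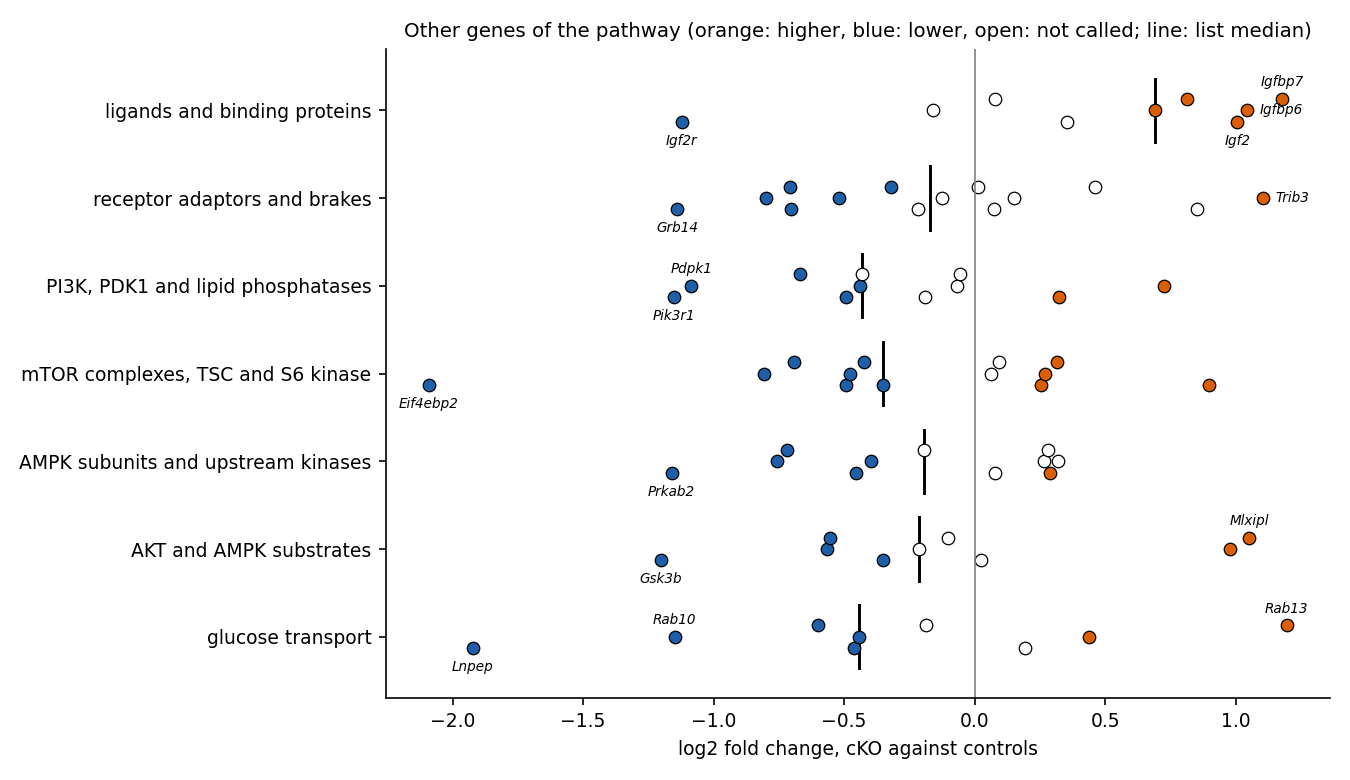
Log2 fold change in cKO against controls for the 76 tested genes of the 7 pathway lists, with 1 point per gene, orange for called higher, blue for called lower, open for not called, and a black line at each list's median. The medians of 6 lists lie below 0, from -0.44 to -0.17, and that of ligands and binding proteins lies at 0.69. With the length and GC offset, which is not drawn, they range from -0.22 to 0.037, and that of ligands is 0.32.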

How the data were processed

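RNA sequencing measured transcripts in 8 hearts. Per the labels' protocols, heart RNA was isolated with TRIzol and made into libraries with a NEBNext Ultra kit. As deposited by the authors, a single table gave estimated counts, not normalised, for each of 45706 Ensembl identifiers, and the submitters' processing notes list STAR 2.5.1b, DESeq2, GRCm38 and mm10 without their roles. The counting program, annotation and strand setting were not given in the sources used, so genes with overlapping exons are uncertain. Of the values above 0 in a library, 71.95% to 76.34% were whole within 1e-06, and the estimated counts were rounded before testing. Totals of 17509564 to 25833259 counts limit precision chiefly for genes of low count.

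Libraries were grouped by genotype label and columns matched by library name. Genes passing filterByExpr (15289) were fitted with TMM scaling and 3 group means over 8 libraries (5 residual degrees of freedom, robust dispersion) with edgeR 4.0.16 in R 4.3.3. The quasi-likelihood test with Benjamini-Hochberg adjustment was applied at 0.05, with each control group weighted equally, and SE was derived from the test statistic. The fit was tested on simulated data. CPM used TMM factors, and pair ratios used exact permutation tests (scipy 1.17.1). GENCODE M21 gave symbols, positions and lengths, with no symbol for 563 identifiers, and RefSeq gave promoter sequences. Each heart is labelled as a separate replicate, and the p-values reflect the variation among them.

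The genes, lists and alternatives were chosen with earlier results of these data known, the length and GC offset among them. Genes named were the 10, the second gene of each pair, up to 4 called genes with the smallest p per list, and the 3 profiles nearest to the gene with the largest change. Alternatives were other scalings, DESeq2 1.42.0, limma 3.58.1 voom, other filters, no robust fit, only the groups compared, a replicate block, leaving out each library, and a per-library smooth offset (mgcv 1.9.3) for length and GC content of the longest transcript (15216 genes). The values of 1 gene of the lists are not reported here.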

Additional observations from a re-analysis of the deposited data

Results flagged for a closer look

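Mtor in cKO replicate 4 stood at 32.5 CPM, while the other 3 cKO hearts lay between 41.1 and 42.4 CPM. The gap to its nearest neighbour was 0.869 of the group's whole range, above the 95% limit of Dixon's test for 4 samples. It was the 1 far sample among 47 groups examined, and chance alone flags about 1 group in 20. That library also had the lowest summed cardiomyocyte markers (43975 CPM) and the highest summed endothelial markers (1708 CPM), whose part in the value was not tested. Without that library Mtor had a log2 fold change of -0.48 and was still called lower (edgeR adjusted p = 0.000881).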

How the results depend on the processing

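For the 10 genes in cKO against controls, 181 of 200 values stayed on their side of the threshold, 14 lost the call in the same direction, 4 gained it, and 1 called value changed sign and lost its call. The last was Pik3ca, whose length and GC offset gave 0.070, 0.10 and 0.037 against controls, floxed and Cre hearts. Irs2, Irs1, Prkaa2, Insr and Mtor were called in all 20 settings of the main comparison. Called lower were 6 of the 10 genes with library size alone, 8 with upper-quartile scaling, 7 with the offset and 10 with DESeq2, voom or no filter. Over all genes the lower calls numbered 2981 with library size alone, 3351 with upper-quartile scaling and 3699 with the offset. They numbered 3986 with DESeq2, 4173 with voom and 4103 with no filter, beside 4050 in the main setting. Against floxed hearts 5 of the 10 genes were lower with library size alone, and leaving out each library gave 5 to 9, as it did against Cre hearts. All genes called against floxed hearts in either direction numbered 6185 with library size alone and 6559 in the main setting. In cKO against controls, library size alone moved the share of higher calls among all genes from 49.1% to 61.5%, and upper-quartile scaling moved it to 59.3%. For the named pathway genes 575 of 589 values were unaltered in call and direction and 14 lost the call.

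Replicate numbers showed no clear pairing, and same-numbered libraries correlated at -0.108 to 0.133 in their deviations from group means. With 2 libraries in each control group these deviations mirror each other, so the check cannot exclude pairing. The numbers are those of the titles, and the library names of the floxed hearts carry other numbers. Numbers 3 and 4 occur in cKO alone. With a replicate block 8 of the 10 genes were lower in cKO against controls, beside 3365 of all genes (4050 without it). In either direction 6372 genes were called in cKO against controls (7959 without it) and 84 in Cre against floxed. Lnpep lost its call with the block (edgeR adjusted p = 0.124). With the block and offset together 5263 genes were called against controls, 4337 against floxed, 4079 against Cre and 83 in Cre against floxed. Tbc1d4, which was not called, also changed sign under this combination, to 0.10 against controls (adjusted p = 0.582), 0.15 against floxed and 0.046 against Cre hearts.

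Over all genes, leaving out each library gave 3600 to 7037 calls against floxed, 3929 to 6934 against Cre and 7 to 18 in Cre against floxed. For Cre against floxed, where the main count was 15, DESeq2 gave 62, voom 23, no filter 31 and a fit of only the groups compared 32. The cause of these shifts was not tested. With 2 floxed and 2 Cre hearts, and as few as 25 counts for Irs2 in a library, modest differences were hard to detect.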

Other observations

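Acaca (acetyl-CoA carboxylase 1), a classical AMPK substrate that makes malonyl-CoA for fat synthesis, varied within every genotype. It stood at 14.1, 10.9, 34.4 and 37.8 CPM in cKO replicates 1 to 4, at 17.5 and 21.8 CPM in floxed and at 42.2 and 28.0 CPM in Cre hearts, and was not called (log2 fold change -0.10, edgeR adjusted p = 0.866). The adipocyte hormone gene Adipoq stood in the same hearts at 4.16, 2.47, 14.3 and 16.2 CPM, at 2.06 and 3.93 CPM in floxed hearts, and above both of these in each Cre heart. Both genes were thus highest among cKO hearts in replicates 3 and 4 and higher in both Cre than in both floxed hearts, and what adipocyte RNA adds to Acaca was not tested. Acacb, the carboxylase isoform that restrains fatty acid oxidation in muscle, was lower in cKO (235 ± 29.5 against 345 ± 49.0 CPM, SD, n = 4 each, log2 fold change -0.55, adjusted p = 0.00383). Trib3, a pseudokinase that binds AKT, was 2.15-fold higher (4.63 ± 1.41 against 2.15 ± 0.531 CPM, adjusted p = 0.00476). These genes were chosen after their values were seen.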
